A study of Mus musculus with 5 samples.

Results

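The MHC class II pathway was followed through 8 genes on 5 arrays of mouse thymic cells. The genes are H2-Aa, H2-Ab1 and H2-Eb1, which encode chains of the class II molecules, Cd74 (the invariant chain), H2-DMa, H2-DMb1 and H2-Oa, which encode peptide-loading chains, and Ciita, which encodes the class II transactivator. Their probe sets were found by current symbol or older synonym (Cd74 was filed as Ii and Ciita as C2ta). This gave 17 probe sets out of 45101 and 8 genes out of 19764 named genes.

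Each array measured total RNA from a pool of thymic cell suspensions of 3 male CD-1 mice aged 4 to 6 weeks. CD-1 is an outbred stock, so animals of different pools need not carry the same MHC alleles. The groups were an untreated pool, a pool taken 4 h after phosphate-buffered saline (PBS) was given into the peritoneum, a pool from mice given 0.2 mg dexamethasone each by the same route and for the same time, a suspension kept 4 h in culture with 0.1% ethanol as vehicle, and a suspension kept 4 h with dexamethasone, its concentration labelled 10e-7 M. Dexamethasone is a synthetic glucocorticoid, and the study compared glucocorticoid with vehicle in living animals and in culture. With 1 array per group, differences between arrays carry no replicate check, and how precise they are is limited by the number of arrays. In whole suspensions, fewer cells of a type and less RNA per cell cannot be told apart.

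Class II molecules are pairs of an alpha and a beta chain that carry peptides from endosomes to the cell surface, where CD4 T cells read them. The invariant chain occupies the groove on the way to the endosome, proteases cut it down, and the DM heterodimer exchanges its remnant for peptide while the DO heterodimer restrains DM. In the thymus, epithelial cells, dendritic cells, macrophages and B cells present class II peptides to developing T cells, which in the mouse make little class II themselves. Ciita switches the family on from a promoter module of X and Y boxes, bound by the RFX complex and by NF-Y.

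The promoters are shown because this module is how the family is known to be switched on, and the windows show which members hold its letters. RefSeq's promoter table (build GRCm38.p6) held entries for 5 of the 8 members, namely H2-Aa, H2-Eb1, H2-DMa (with a pair of starts), H2-DMb1 and H2-Oa, and had none for H2-Ab1, Cd74 and Ciita. The 250 bases before each start were searched on both strands for an X box core, AGNAAC, followed 28 to 40 bases later by a Y box, ATTGG, which is an inverted CCAAT. The motifs do not overlap at this spacing. The pair was found in H2-Eb1, H2-DMb1 and H2-Oa, which is 3 of the 5 members, and in 0.533% of 32851 promoters. The last 150 bases before the start are printed 5′ to 3′ on the gene's strand, with X core and Y box in capitals.
H2-Eb1, chr17:34305717-34305866, plus strand: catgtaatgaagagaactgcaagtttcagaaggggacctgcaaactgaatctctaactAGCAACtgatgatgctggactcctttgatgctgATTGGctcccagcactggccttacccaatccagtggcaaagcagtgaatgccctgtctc
H2-DMb1, chr17:34153041-34153190, plus strand: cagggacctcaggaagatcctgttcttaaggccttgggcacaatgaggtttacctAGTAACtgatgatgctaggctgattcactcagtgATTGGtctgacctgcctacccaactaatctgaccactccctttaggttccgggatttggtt
H2-Oa, chr17:34092229-34092378, plus strand: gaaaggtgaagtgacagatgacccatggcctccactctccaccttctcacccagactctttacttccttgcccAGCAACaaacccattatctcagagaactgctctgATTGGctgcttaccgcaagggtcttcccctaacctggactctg
H2-Aa, chr17:34287824-34287973, minus strand: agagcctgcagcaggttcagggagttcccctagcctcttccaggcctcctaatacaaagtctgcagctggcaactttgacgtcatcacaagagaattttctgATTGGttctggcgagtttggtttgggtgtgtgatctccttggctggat

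In H2-Eb1 the X core began 92 bases and the Y box 59 bases before the start. In H2-DMb1 they began 95 and 61 bases before it, and in H2-Oa 77 and 43 bases before it. H2-Aa held the Y box letters on its own strand without the exact X core letters in the searched window, and both H2-DMa windows lacked the pair. Only exact letters were searched. The H2-Aa window holds ggcaac ahead of its Y box, off the core in its first letter, so the search does not show that H2-Aa lacks an X box. Taken alone, the X core letters occurred in 42.3% and the Y box letters in 33.8% of all promoters, so only the spaced pair was uncommon. Of the other class II chains with an entry (H2-Ob, H2-DMb2 and H2-Eb2), 2 of 3 held the pair, H2-Ob and H2-Eb2.

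**Figure D1:**
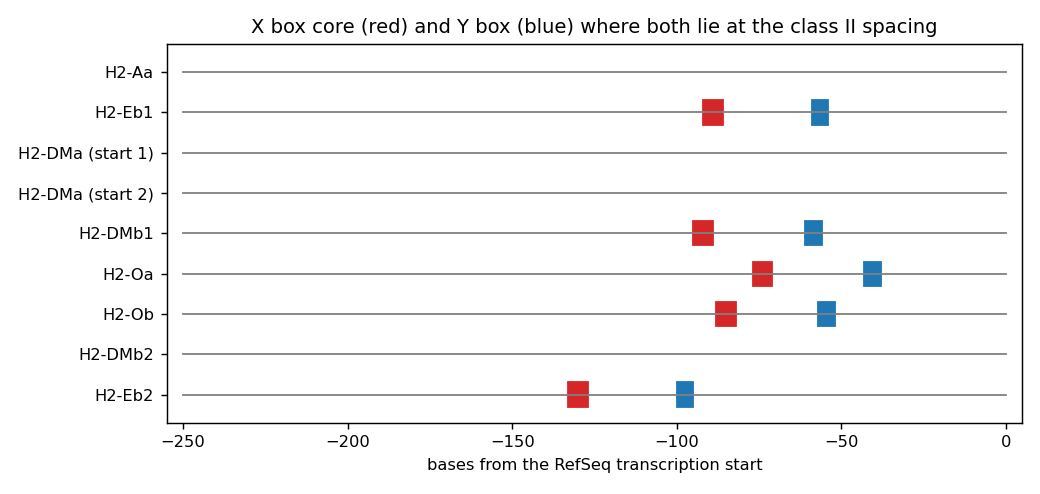
Position of the X box core (red) and Y box (blue) in bases before the RefSeq start, for the promoter entries of class II members and of H2-Ob, H2-DMb2 and H2-Eb2. Boxes are drawn only where both lie 28 to 40 bases apart; in H2-Eb1, H2-DMb1 and H2-Oa the X core begins 77 to 95 bases before the start.

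Levels are given on the log2 scale of the deposited values, in the order untreated, PBS, dexamethasone in vivo, ethanol culture and dexamethasone culture. The chain genes came first. H2-Aa, the alpha chain of the A molecule (probe set 1435290_x_at), stood at 11.10, 11.33, 11.50, 9.35 and 8.51. H2-Ab1, its beta chain (1450648_s_at), stood at 11.15, 11.33, 11.07, 8.48 and 7.33. In both genes the 3 uncultured arrays lay close together, ethanol culture lay well below them and dexamethasone culture lowest. H2-Eb1, the beta chain of the E molecule (1417025_at), stood at 8.76, 10.11, 9.94, 8.71 and 7.91. It was high on both injected arrays, while the untreated array was level with ethanol culture.

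Cd74, which guides class II chains through the cell (1425519_a_at), stood at 11.99, 12.05, 12.21, 9.81 and 9.18, the same order of culture below uncultured as the A chains. H2-DMa, the alpha chain of DM (1422527_at), stood at 8.05, 8.40, 8.25, 7.03 and 7.68. It was higher in dexamethasone culture than in ethanol culture. H2-DMb1, a beta chain of DM (1443687_x_at), stood at 6.82, 8.08, 7.58, 6.39 and 6.17. H2-Oa, the alpha chain of DO (1419297_at), stood at 7.23, 7.84, 7.43, 7.09 and 6.74. Both were highest after PBS, and both showed a smaller step into culture than Cd74 did.

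Ciita, the transactivator itself (1421210_at), stood at 5.38, 5.27, 4.45, 3.79 and 3.85, and both cultured values lay under the array medians of 4.26 and 4.23. With a mean under the level filter of 5.28, it was the 1 member that the filter dropped, so 7 of 8 members entered the limma test below. With no replicate spread, neighbours in any of these orders cannot be said to differ beyond error. The spread between probe sets of a gene gives a partial view of the measurement. The 3 probe sets of H2-Ab1 ran in parallel, whereas the dimmest H2-Aa probe set lay between 2.52 and 3.17 and a further H2-DMa probe set between 3.11 and 3.92, under the median of every array.

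**Figure D2:**
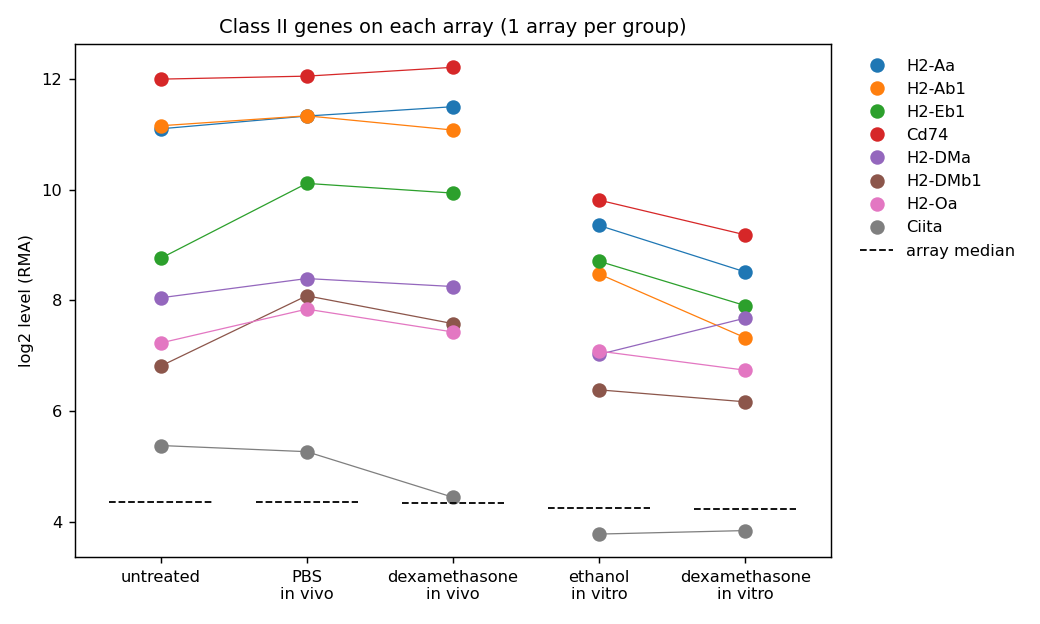
Log2 level (y axis) of the 8 class II genes on the 5 arrays (x axis), 1 point per gene and array, each gene represented by its brightest probe set; dashed bars mark the median probe set of each array, and lines join the uncultured arrays and the cultured arrays. H2-Aa, H2-Ab1 and Cd74 lie between 11.07 and 12.21 on the uncultured arrays and between 7.33 and 9.81 in culture.

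In culture, class II chain genes were lower with dexamethasone than with ethanol. H2-Ab1 was 2.22-fold lower, a log2 difference of -1.15, and its other probe sets were at -1.06 and -0.82. H2-Aa differed by -0.84, but its other probe sets were at -0.67 and, for the dimmest, 0.39, and the mean over them was -0.37. H2-Eb1 differed by -0.80 and Cd74 by -0.63. H2-DMa, in contrast, differed by 0.65, and its dim second probe set by 0.23. With the untreated array as its control, dexamethasone culture had H2-DMa at -0.37. H2-Oa was at -0.34 and H2-DMb1 at -0.22. Ciita was at 0.06, but its other probe sets were at -0.38 and -0.15, and its mean over probe sets had the opposite sign.

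Of the 8 members, 1 was at least 2-fold lower and 0 at least 2-fold higher. Among genes past the level filter 0.86% were at least 2-fold lower and 1.53% at least 2-fold higher, and among all named genes 0.577% and 1.03%. By direction alone, 6 members were lower and 2 higher, with a median of -0.49, against a median of 0.04 over all kept genes. Of the 9882 kept genes, 4023 were lower and 5565 higher. Of the 17 probe sets, 13 were lower and 4 higher, and the 2 at least 2-fold lower both belonged to H2-Ab1, where 0.768% of all probe sets were that much lower and 0.722% that much higher. The H2-Ab1 difference shrank to -0.95 when 50 units were added to the linear intensities, which ends its count as 2-fold lower.

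Antigen-presenting partners gave a mixed picture in the same comparison. Among 9 genes of endosomal proteolysis and reduction, 6 were lower and 3 higher with a median of -0.20, and 0 passed 2-fold. Ctsl, cathepsin L, the main invariant chain protease of cortical epithelium, was at -0.85. Ctss, cathepsin S, which does this work in dendritic and B cells, was at 0.06. Ctsd, an aspartic protease, was at 0.41, and Ifi30, a thiol reductase, at -0.40.

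Of 15 class II transcription factor genes, 1 was at least 2-fold lower, and the list's median was -0.04. The RFX genes Rfx5 (0.31), Rfxap (0.16) and Rfxank (-0.22) and the NF-Y genes Nfya (-0.18), Nfyb (-0.10) and Nfyc (-0.01) differed little. The gene at least 2-fold lower was Irf8, an interferon regulatory factor of dendritic cells and macrophages, at -1.08. Irf4 was at 0.71, from an ethanol level of 3.67, and Spi1, which encodes PU.1, at -0.62. Of 5 costimulatory partners, Cd83, a surface protein of mature dendritic cells, was at -1.62 and Cd40 at -0.67, while Cd86 (-0.05) and Icosl (-0.05) differed little.

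Marker lists of the cells that carry class II were set beside these values. Of 13 measured dendritic cell markers, 7 were lower and 5 higher in dexamethasone culture, with a median of -0.01. Their summed linear level, in log2, was 10.42 with ethanol and 10.41 with dexamethasone. Most of that sum was Ccr7, which mature T cells also carry, at 9.62 and 9.60, so the sum says little of dendritic cells. Itgax, which encodes CD11c and defines many dendritic cells, was at -1.11, from an ethanol level of 4.24 that lay under that array's median. B cell markers had a median of -0.26 (7 of 11 lower) and summed levels of 8.72 and 8.79. The brightest B cell marker with dexamethasone, Cd79b, stood at 7.06 with ethanol and 7.72 with dexamethasone. Macrophage markers had a median of -0.16 (12 of 14 lower) and summed levels of 9.68 and 9.31. Most of that sum was Lyz2, at 9.24 and 8.83. Thymic epithelium markers had a median of 0.21 (6 of 15 lower) and summed levels of 8.84 and 8.73. In ethanol culture, 10 of 14 macrophage and 8 of 15 epithelial markers lay at or below the array median, so these medians rest largely on dim values. Thymocyte markers had a median of -0.34 (12 of 14 lower) and summed levels of 15.55 with ethanol and 15.13 with dexamethasone. The part of any of these cell types in the class II differences was not tested.

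**Figure D3:**
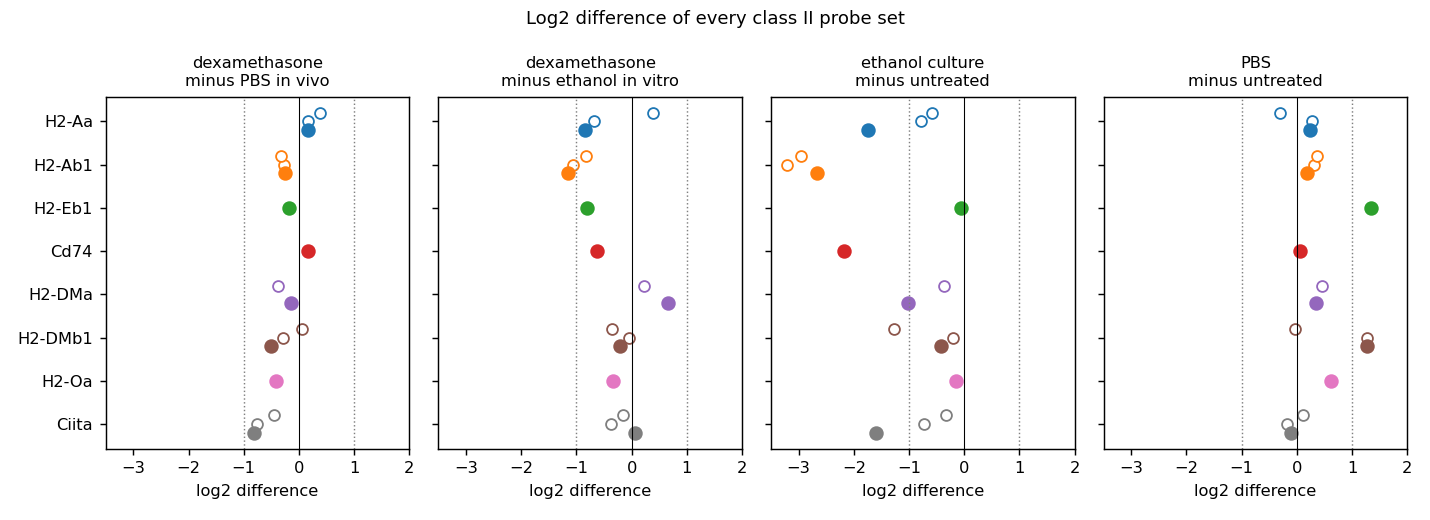
Log2 difference (x axis) of every class II probe set (rows, by gene) in 4 comparisons of a pair of arrays; filled points stand for the gene's brightest probe set, open points for its others, and dotted lines mark a 2-fold difference. In dexamethasone against ethanol culture the 3 probe sets of H2-Ab1 lie between -1.15 and -0.82, and in ethanol culture against untreated they lie between -3.22 and -2.67.

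In living animals, class II levels differed little between the dexamethasone and PBS pools. H2-Aa was at 0.17, Cd74 at 0.16, H2-DMa at -0.14, H2-Eb1 at -0.17 and H2-Ab1 at -0.26. H2-Oa was at -0.41, and H2-DMb1 at -0.50, with its other probe sets at -0.30 and 0.05. Against the untreated array in place of PBS these became 0.20 for H2-Oa and 0.77 for H2-DMb1. Ciita was at -0.82, with its other probe sets at -0.76 and -0.45, and at -0.30 with 50 units added to the linear intensities.

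Of the 8 members, 0 were at least 2-fold lower and 0 at least 2-fold higher, where 1.48% and 2.71% of kept genes passed, and 0.987% and 2.27% of all named genes. In direction 6 were lower and 2 higher, with a median of -0.22 against -0.07 over all kept genes. Of the 9882 kept genes, 5788 were lower and 3834 higher, so most genes leaned the same way. Of the 17 probe sets 0 passed 2-fold either way, where 0.735% of all probe sets were that much lower and 2.06% that much higher. Markers of thymocytes, the most abundant cells of a thymic suspension, had a median of -0.62 (13 of 14 lower). Their summed log2 level was 15.26 after PBS and 14.66 after dexamethasone, and their part in the class II values was not tested. Macrophage markers had a median of 0.38 (11 of 14 higher), with Mrc1, the mannose receptor, at 1.68. B cell markers had a median of -0.40 (8 of 11 lower), with Ms4a1, which encodes CD20, at -1.08. Dendritic cell and thymic epithelium markers had medians of -0.08 and -0.11. Of 13 dendritic cell markers 8 were lower and 5 higher, with Ccl17 at 0.95. Of 15 epithelium markers 8 were lower and 7 higher. At least 2-fold lower were 2 of them, Psmb11 at -1.46 and Foxn1 at -1.02, and 0 were at least 2-fold higher. The Foxn1 level with dexamethasone, 3.77, lay under that array's median of 4.35.

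Among partners in vivo, Irf1 was at -0.71 and Irf8 at -0.75, both interferon regulatory factors. Of the RFX genes, Rfxank was at -0.67, Rfx5 at -0.42 and Rfxap at 0.01. Rfxank stood at 6.51 untreated, 7.05 after PBS and 6.38 with dexamethasone. Cd83 was at -1.05 and Cd40 at -0.78, while Cd86 (0.35) and Icosl (0.32) were higher. Of the proteases, Lgmn, asparaginyl endopeptidase, was at 0.53, Ctsd at 0.49 and Ctsb at 0.44, and Ifi30 at -0.35.

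The dexamethasone comparisons share no array, so the difference common to both was tested with limma across the 9882 kept genes. None of the 7 members tested passed after Benjamini-Hochberg adjustment, where 375 genes, 3.79%, did (1.46% fell and 2.34% rose). At an unadjusted p under 0.05 there were 2 members, H2-Ab1 and H2-Eb1, and 1262 of the 9882 kept genes. H2-Ab1 had a common difference of -0.70 (SE 0.199, limma adjusted p = 0.103) and was lower in both settings. H2-Eb1 had -0.49 (SE 0.179, limma adjusted p = 0.246), also lower in both. With each array centred on its median, the limma adjusted p of H2-Ab1 was 0.000813, and after quantile normalization it was 9.11e-05, with 0.0316 for H2-Eb1. The common difference of H2-Ab1 was -0.68 (SE 0.164) and -0.73 (SE 0.156) in these fits, so it changed little while the adjusted p changed greatly. Over all alternatives the adjusted p of H2-Ab1 ranged from 9.11e-05 to 1, the latter with setting left out of the fit.

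The other members were at -0.34 for H2-Aa (-0.07 as the mean of its probe sets), -0.23 for Cd74, -0.36 for H2-DMb1, -0.38 for H2-Oa and 0.26 for H2-DMa. Within the partner lists, Cd83 fell by 1.33 (limma adjusted p = 0.00779) among 4 costimulatory genes tested. Irf8 fell by 0.92 (limma adjusted p = 0.0329) among 14 transcription factor genes tested. Of 9 protease and reductase genes 0 passed, with 2 at an unadjusted p under 0.05. Of 11 class I presentation genes, Tap2, a peptide transporter subunit encoded among the class II genes, rose by 1.03 (limma adjusted p = 0.00289).

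All members but Cd74 and Ciita lie in one stretch of chromosome 17, in RefSeq order from H2-Oa to H2-Eb1. In that stretch these 6 members and 7 other genes were measured. In dexamethasone against ethanol culture the 6 members of the stretch had a median of -0.57 and the 7 others 0.24. The others were Brd2, H2-DMb2, Psmb9, Tap1, Psmb8, Tap2 and H2-Ob, of which the class I loading genes Psmb8, Psmb9, Tap1 and Tap2 stood between 0.24 and 0.88. H2-DMb2, a second DM beta chain, was at 0.00, and H2-Ob, the beta chain of DO, at -0.15.

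After 4 h in ethanol culture, most of the class II family was lower than in the untreated suspension. H2-Ab1 was 6.38-fold lower, at -2.67, and its other probe sets were at -3.22 and -2.96. Cd74 was 4.54-fold lower, at -2.18, and H2-Aa 3.35-fold lower, at -1.74. The other H2-Aa probe sets were at -0.79 and -0.59, short of 2-fold, and the mean over them was -1.04. Ciita was at -1.60, and H2-DMa at -1.02. H2-DMb1 was at -0.43 and H2-Oa at -0.15. H2-Eb1 was at -0.05, and it turned to 0.05 with each array centred on its median.

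Of the 8 members, 5 were at least 2-fold lower and 0 at least 2-fold higher, against 8.07% and 3.1% of kept genes and 7.14% and 2.15% of all named genes. All 17 probe sets were lower, 8 of them at least 2-fold, where 5.01% of all probe sets were that much lower and 2.33% that much higher. By direction alone, 4587 of the 9882 kept genes were lower and 5001 higher. The probe sets of H2-DMb1 disagreed in size, with the dimmest at -1.27. With the mean of all probe sets, or with 50 units added, 3 members were at least 2-fold lower, since H2-DMa and Ciita no longer were, and with arrays centred on their medians H2-DMa was at -0.92. Among further class II chains, H2-DMb2 was at -2.24 and H2-Ob at -1.33. Partner genes were lower too. Endosomal proteolysis and reduction genes had a median of -1.35 (9 of 9 lower, 6 at least 2-fold). Costimulatory partners had -1.56 (4 of 5 at least 2-fold lower) and class I presentation genes -0.69 (10 of 11 lower, 4 at least 2-fold). The transcription factor genes had -0.19 (10 of 15 lower, with 3 at least 2-fold lower and 1 at least 2-fold higher).

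Transcripts of the cell types that present antigen were lower on the same cultured array. The median over thymic epithelium markers was -4.91, 14 of 15 being lower, and their summed log2 level went from 13.84 to 8.84. Macrophage markers had a median of -2.57, with 13 of 14 lower and summed levels of 13.10 and 9.68. Dendritic cell markers had a median of -0.61, with 12 of 13 lower, among them Fscn1, an actin bundler of mature dendritic cells, at -2.49, while Ccr7 was at 1.32. B cell markers had a median of -0.56, with 9 of 11 lower. Thymocyte markers had a median of 0.24. In ethanol culture, 8 of 15 epithelial, 10 of 14 macrophage, 5 of 13 dendritic cell and 3 of 11 B cell markers were at or below the array median. On the untreated array the same counts were 0, 1, 2 and 3. How far these cells account for the class II differences was not tested.

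**Figure D4:**
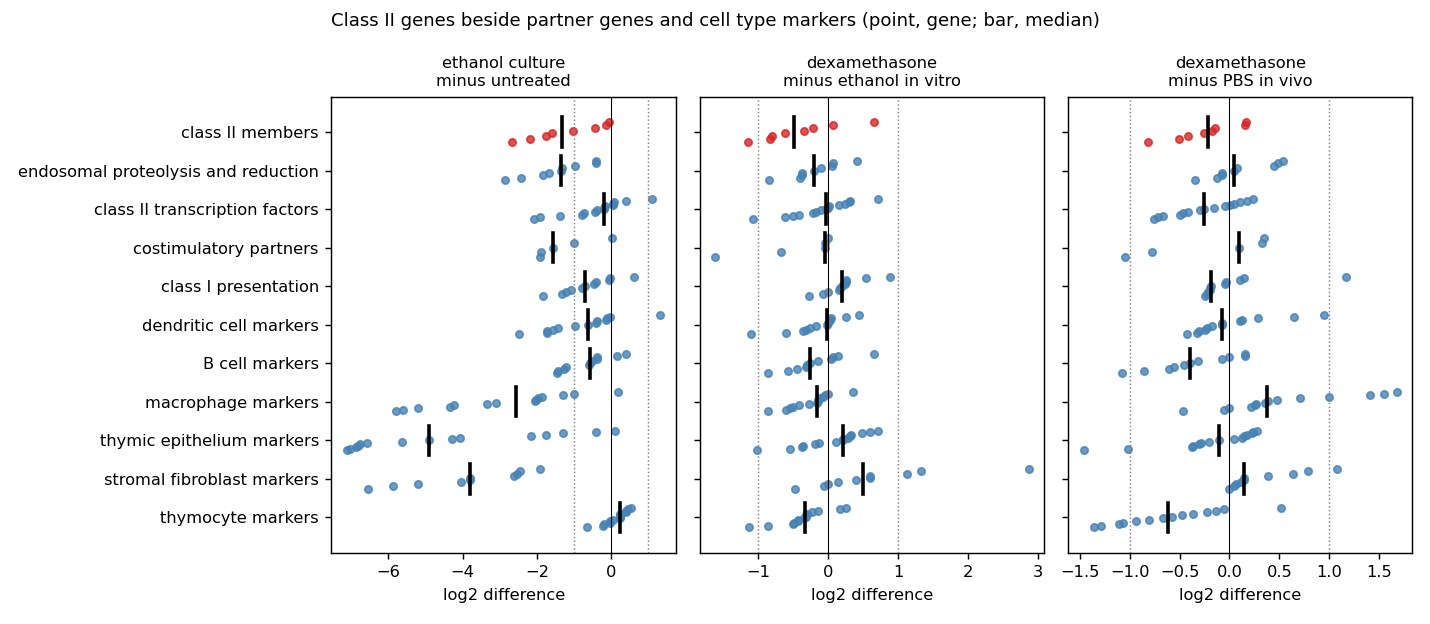
Log2 differences (x axis, with a scale of its own in each panel) of the class II members (red), partner genes and cell type markers (blue), 1 point per gene and a black bar for each list's median, in 3 comparisons; dotted lines mark a 2-fold difference. In ethanol culture against untreated, class II members have a median of -1.31 and thymic epithelium markers -4.91. In dexamethasone against ethanol culture the medians are -0.49 and 0.21, where 8 of 15 epithelium markers lie at or below the median of the ethanol array.

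Between the PBS and untreated pools, 2 class II genes stood out from a quiet background. H2-Eb1 was 2.55-fold higher after PBS, at 1.35, and H2-DMb1 was 2.41-fold higher, at 1.27. Its second probe set, drawn from the same sequence record, was at 1.27 as well. The third, drawn from another record, was at -0.03. H2-Oa was at 0.61 and H2-DMa at 0.35, and H2-Aa (0.23), H2-Ab1 (0.18) and Cd74 (0.05) differed less, with Ciita at -0.11. At least 2-fold higher were 0.192% of kept genes and 0.152% of all named genes, and at least 2-fold lower 0.374% and 0.4%. Of 17 probe sets 3 were at least 2-fold higher, against 0.135% of all probe sets, and 0 at least 2-fold lower, against 0.568%. The H2-Eb1 value was at least 1.26 under each alternative, while H2-DMb1 dropped to 0.84 as the mean of its probe sets.

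The 7 other genes measured between H2-Oa and H2-Eb1 lay between -0.21 and 0.16 in this comparison. The markers of antigen-presenting cells had medians of 0.04 for dendritic cells, 0.01 for B cells, -0.03 for macrophages (10 of 14 lower) and 0.08 for thymic epithelium (12 of 15 higher). Single markers differed more, among them Cd163 at -0.83 and Marco at -0.74, both macrophage receptors, Cd209a at -0.63 and Cd79a at -0.54, which were chosen after their values were seen. H2-Eb1 and the brightest H2-DMb1 probe set were high on both injected arrays, at 9.94 and 7.58 with dexamethasone. They were lower on the untreated and both cultured arrays. The dimmest H2-DMb1 probe set did not share this, at 5.92 untreated, 5.89 after PBS and 5.95 with dexamethasone in vivo.

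Other MHC probe sets divided the pools in another way. The file's symbol H2-Ea, the alpha chain that pairs with H2-Eb1, had 3 probe sets. Those drawn from a common record stood at 7.34, 6.99, 10.20, 8.76 and 8.27, and at 5.70, 5.15, 8.88, 7.84 and 7.12, so they were highest in the injected dexamethasone pool and lowest after PBS. The remaining one stood at 11.97, 11.96, 11.89, 9.04 and 8.18, a course like that of H2-Aa. The file puts these 3 probe sets and the 3 of H2-Aa in a single UniGene cluster, so its symbols do not separate both alpha chains with certainty.

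Probe sets filed as H2-D1, a class I gene known for many alleles, diverged as well. Of 17, 4 were higher and 3 lower by 2-fold or more in the injected dexamethasone pool than in the PBS pool, with differences from -3.63 to 4.56. Between ethanol culture and untreated, 5 were higher and 7 lower by 2-fold or more, from -1.44 to 5.12. Between the cultured arrays they ran from -1.13 to 0.30, and between PBS and untreated from -0.66 to 0.69. Probe sets of a polymorphic gene can differ with the alleles of a pool as well as with its RNA level. Which alleles each pool carried was not measured, and their part in the class II values, those of ethanol culture included, was not tested. The cultured pair, in which H2-Ab1 was 2.22-fold lower, had 0 of 17 H2-D1 probe sets higher and 3 lower by 2-fold or more.

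**Figure D5:**
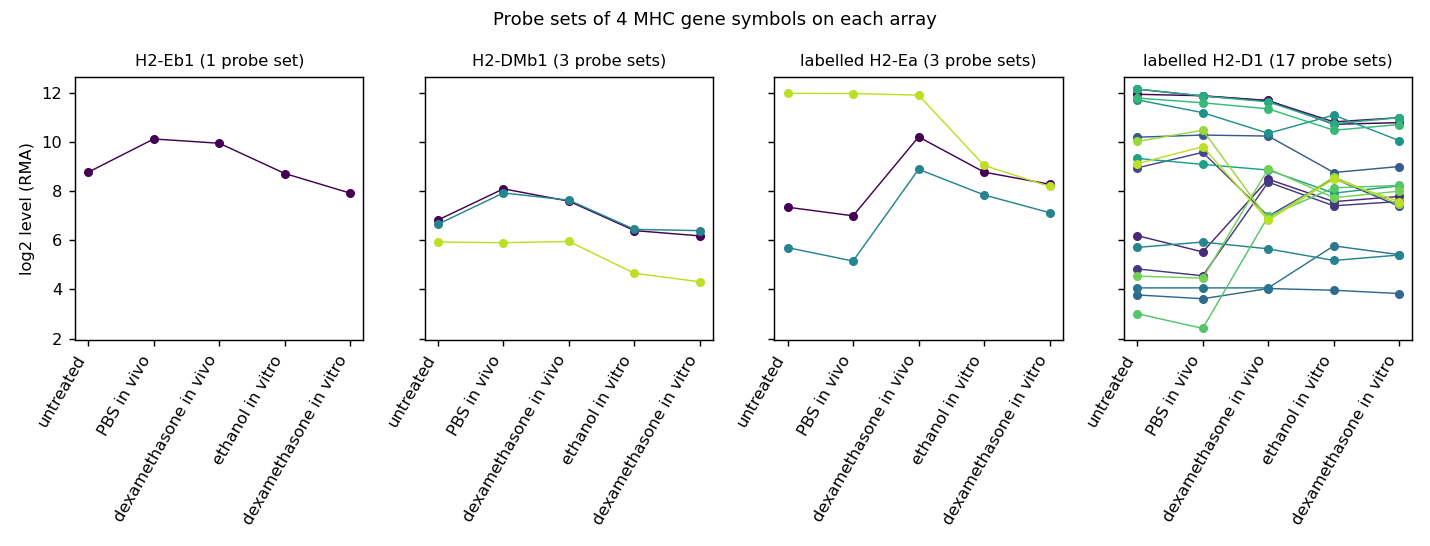
Log2 level (y axis) of every probe set of H2-Eb1, H2-DMb1 and of the symbols H2-Ea and H2-D1 on the 5 arrays (x axis), with 1 line per probe set. H2-Eb1 and 2 of 3 H2-DMb1 probe sets are highest on the PBS array, 2 of 3 H2-Ea probe sets are highest with dexamethasone in vivo, and H2-D1 probe sets cross between the PBS and dexamethasone arrays.

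The profiles of H2-Aa, H2-Ab1, H2-Eb1 and Cd74, which were not all alike, were averaged after centring each gene on its mean over the 5 arrays. The average stood at 0.66 untreated, 1.11 after PBS, 1.09 with dexamethasone in vivo, -1.0 in ethanol culture and -1.86 in dexamethasone culture. The 8 kept genes nearest to it by Euclidean distance over the 5 arrays, members aside, were F11r (0.37), Mpeg1 (0.37), Ly86 (0.41), Lgals3bp (0.41), Adgre1 (0.42), Slc7a7 (0.42), Cxcl16 (0.42) and Anxa4 (0.43). Adgre1 encodes a surface receptor that defines mouse macrophages, Mpeg1 a perforin-like protein of phagocytes, and F11r a junctional adhesion molecule. The Adgre1 levels in ethanol and dexamethasone culture, 4.14 and 3.64, lay under the array medians of 4.26 and 4.23. In ethanol culture against untreated Adgre1 was at -2.02, where the 14 macrophage markers had a median of -2.57 and ran from -5.79 to 0.19. Mpeg1 stood at 9.45, 9.47, 9.54, 7.67 and 6.58, which is -1.10 for dexamethasone against ethanol culture.

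Of the members, H2-Aa lay nearest to the profile it helped to form, at 0.17, and Cd74 at 0.39. H2-Ab1 lay farther, at 1.07, being lower than the averaged profile in both cultures, and H2-Eb1 at 1.37, close to a loading gene that did not enter the average. The loading genes, which did not enter the profile, were at 1.48 for H2-DMb1, 1.97 for H2-DMa and 2.02 for H2-Oa, where H2-DMb1 ranked 377 and H2-Oa 826 of 9882 kept genes. With 5 arrays these distances describe likeness on these arrays only.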

How the data were processed

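The 5 arrays were read through 2 deposited tables that hold the same measurements. The authors deposited log2 values of 45101 probe sets per array, and linear intensities in the series matrix deposited with them had log2 values that differed from these by at most 7.11e-15. RMA made the values, per the submitters' processing notes, with version and settings not given in the sources used here. Detection calls and scan dates were not used here. RMA takes its scale from all arrays together, so a value is relative to the rest of the array.

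Symbols were updated through RefSeq's gene table of GRCm38.p6, by symbol, accession and then unique synonym (22692, 1563 and 11309 probe sets), with 4759 left as filed, 4714 unnamed and 64 controls. For each of 19764 genes the probe set brightest on average over the arrays stood for the gene. The level filter kept the 9882 genes with a mean of at least 5.28, the median over genes. Differences of log2 values between a pair of arrays were computed and counted past an absolute value of 1, with no test, since each group had 1 array. For the dexamethasone difference shared by both settings, limma 3.58.1 under R 4.3.3 was used (setting as covariate, eBayes with a mean-variance trend, Benjamini-Hochberg adjustment over kept genes, threshold 0.05). It leaves 1 residual degree of freedom per gene, the disagreement between settings, and its p-values leave the variation from pool to pool unmeasured. The fit was run on simulated arrays in which every gene had the same spread and no setting effect. Such arrays cannot check the trend or the variation from pool to pool. The named genes were all 8 members, up to 4 per further list by size of difference plus any that passed limma, and the 8 nearest profiles. Members, lists and rules were chosen with earlier results of these data known. Alternatives were another probe set rule, no filter, other scalings, an added 50 intensity units, other control arrays, and limma without setting or trend.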

Additional observations from a re-analysis of the deposited data

Results flagged for a closer look

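For 4 members the dexamethasone difference had opposite signs in vivo and in culture, each from 1 pair of arrays, and the difference between settings was not tested. H2-Aa was higher in vivo and lower in culture, and its in vivo minus in vitro value was 1.01. Cd74 was likewise higher in vivo and lower in culture, with a value of 0.79. H2-DMa was lower in vivo and higher in culture, with a value of -0.80. Ciita was lower in vivo and near its ethanol level in culture, with a value of -0.89, and its sign in culture turned when its probe sets were averaged.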

How the results depend on the processing

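No paired analysis was possible because each group had 1 array and the labels do not say whether any pools shared mice. The limma test used setting (in vivo or culture) as its covariate instead. Of 225 values of single members under the alternatives, 210 kept their direction where they were called and their side of the threshold, 8 lost a 2-fold call and 7 gained a call. Dropping the filter could not change a member's difference between a pair of arrays, so those values were kept by construction. A changed sign short of a call also counted as kept, as for H2-Eb1 in ethanol culture (-0.05 to 0.05). In vivo, 1 member, H2-Eb1, was at least 2-fold higher when the untreated array replaced PBS, against 0. In culture, 0 members were at least 2-fold lower with 50 intensity units added and 4 with untreated as the control, against 1. In ethanol culture against untreated, 3 were lower with probe sets averaged and 3 with 50 units added, against 5. In PBS against untreated, 1 was higher in each of these, against 2. The limma test called 1 member with arrays centred and 2 after quantile normalization, against 0, and the cause was not tested. The common difference of H2-Ab1 was -0.68 and -0.73 in these fits, against -0.70, so its effect was no clearer in size.

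Over all genes, limma's 231 that rose and 144 that fell became 417 and 271 with arrays centred, 406 and 330 after quantile normalization, 94 and 32 without the trend, 92 and 29 with probe sets averaged, and 0 and 0 both without the filter (1313 at an unadjusted p under 0.05) and without setting (324). Without the filter, higher and lower counts were 449 and 195 in vivo (268 and 146), 424 and 1411 in ethanol culture (306 and 797) and 30 and 79 after PBS (19 and 37). With 50 units added they were 190 and 52 in vivo, 93 and 21 in dexamethasone culture (151 and 85), 130 and 527 in ethanol culture and 9 and 22 after PBS. Averaged probe sets gave 53 lower in dexamethasone culture. Against untreated, 222 were lower in vivo, and 496 were higher and 844 lower in culture. Quantile normalization gave 29 higher and 34 lower after PBS. Array medians differed by -0.11 between ethanol culture and untreated. Precision is limited by 1 array per group, and for Ciita by levels near the array median.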
